A study of Mus musculus with 7 samples.

Results

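The MAP kinase phosphatases and the Sprouty and Spred inhibitors were described in activated mouse CD8 T cells with and without the kinase Lck. The 10 members were the phosphatase genes Dusp1, Dusp2, Dusp4, Dusp5, Dusp6 and Dusp10, the Sprouty genes Spry1, Spry2 and Spry4, and Spred1. They were found by gene name among the non-control probes of a 1-colour microarray and had 12 of the 55681 probes, or 10 of 24048 named genes. The 7 samples were lymph node CD8 T cells of OT-1het, Rag-/- mice, whose T cell receptor recognises an ovalbumin peptide, and all were activated in culture with 100 nM SIINFEKL for 24 h. The 4 WT samples carried no further stated change. The 3 Lck-/- samples also lacked Lck and had a knocked-in Lck that was switched off by taking doxycycline out of the diet for 7 days. No feeding is given for the WT mice, so loss of Lck and any difference in diet or in the inducible construct cannot be told apart. The labels do not name the promoter or cell type that drives the inducible Lck.

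T cell receptor signals pass through Lck to Ras and the ERK kinases, and ERK in turn raises the transcription of its own brakes. DUSP proteins of the MAP kinase phosphatase family take phosphate off both the threonine and the tyrosine of the activation loop of ERK, p38 or JNK, and differ in which kinase they prefer and in whether they sit in the nucleus or the cytoplasm. Sprouty and Spred proteins act upstream, between the receptor and Raf. Transcripts such as Dusp6, Spry1, Spry4, Etv4 and Etv5 are therefore widely read as a record of ERK output.

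No member passed the threshold of an adjusted p under 0.05. Values are log2 signal relative to the 75th percentile of each array, so that 0 is that percentile, and differences are Lck-/- minus WT. Of 14824 genes tested with limma, 0% passed after Benjamini-Hochberg adjustment and 7.13% (1057) had an unadjusted p under 0.05. The WT and Lck-/- values were apart, without overlap, for 7.24% of genes. Each array had 46.6% to 61.1% of its spots well above background and none saturated, and arrays correlated at 0.979 to 0.991 across genes. Lck itself did not part the groups: it read 8.02 on Lck-/- 1, the highest value of all, and 6.04 on WT 4, the lowest. On the other arrays Lck read 7.44, 7.67 and 7.36 on WT 1 to WT 3 and 6.21 and 6.17 on Lck-/- 2 and Lck-/- 3. Without WT 4 and Lck-/- 1, left out for this very signal, its difference was -1.29. Every direction below is therefore between arrays as labelled. Which part of Lck is deleted is not stated in the labels, so whether its probe checks them is not known. Of 10 T cell markers, 9 were well above background on all 7 arrays. Of 11 NK cell markers measured, 3 were above background on every array. All 11 read higher in Lck-/-, with a median of 1.05. The mean of the 10 with a value on all 7 arrays ran from -4.08 to -1.57 in WT and from -2.74 to -1.13 in Lck-/-. The summed signal of these 10 ran from -0.06 to 2.44 and from 1.17 to 3.04. Of 10 B cell markers, 2 were above background on all 7 arrays (Cd79b and Cd22) and 3 on none, Ms4a1 and Ebf1 among them. The 5 B cell markers tested all read higher in Lck-/-, with a median of 0.53. Summed over the 4 with a value on all 7 arrays, their signal ran from 0.30 to 0.94 in WT and from 0.97 to 1.30 in Lck-/-. Most of it came from Cd79b. Of 17 myeloid and dendritic markers, 5 were above background on all 7 arrays and Xcr1, Cd209a and Clec9a on none. Summed over the 12 tested with a value on all 7 arrays, their signal ran from 7.26 to 7.69 in WT and from 7.44 to 8.11 in Lck-/-. Most of it came from Siglech, at 7.17 to 7.61 and 7.32 to 8.04. The mean of the 12 ran from -2.03 to -1.37 and from -2.35 to -1.03. Of the 14 myeloid and dendritic markers tested, 11 read higher in Lck-/- and 3 lower, with a median of 0.31. Ccr2 differed by 1.59 (SE 0.78) and Adgre1 by 0.71 (SE 0.26). The neutrophil genes S100a9 and S100a8, among the 3 lower, differed by -2.76 (SE 0.81) and -2.27 (SE 0.80). They were well above background on only 2 and 1 of the 3 Lck-/- arrays, so these sizes are uncertain. Cd68, whose spot on WT 3 was left out, differed by 0.51 (SE 0.14). The part of these cells in the members' differences was not tested. The arrays also differed in sex-linked transcripts, and the labels give no sex. Xist, which is transcribed from the inactive X chromosome of females, read 1.43 on WT 1 and -7.31 to -6.38 on WT 2 to WT 4, but -0.29 to 1.04 on all 3 Lck-/- arrays. The Y-linked Eif2s3y read -6.31 on WT 1 and -6.82 on Lck-/- 3 and 2.54 to 3.32 on the other 5 arrays, so that Lck-/- 1 and Lck-/- 2 carried both transcripts. The part of sex in the members' differences was not tested. In bulk RNA, fewer cells of a type and less RNA per cell cannot be told apart.

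Of the 10 members, 8 had a probe well above background on at least 3 arrays and were tested, and all 8 were above background on all 7. Among them, 6 differences were negative and 2 positive, with a median of -0.34 against 0.04 over all genes. Of all genes, 42.5% had a negative difference. The groups did not overlap for 2 members, Dusp4 and Dusp6, both lower in Lck-/-, where 2.15% of all genes were parted in that direction. No member was parted upward, against 5.09% of all genes. Only Dusp4 had an unadjusted p under 0.05, where 2.19% of all genes did so downward and 4.94% upward.

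**Figure D1:**
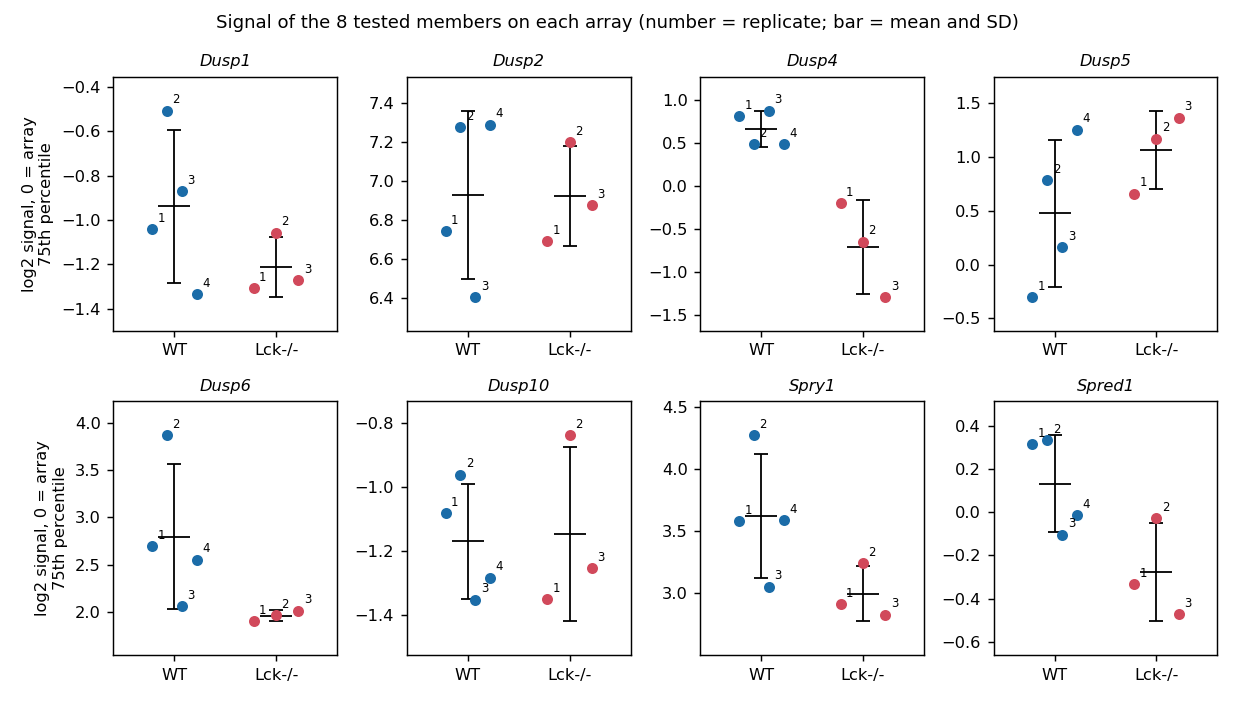
Log2 signal (vertical axes, 0 is the 75th percentile of the array) of the 8 tested members on the 4 WT (blue) and 3 Lck-/- (red) arrays; numbers beside points are replicate numbers and black bars are the mean and SD. The red points lie below all blue points for Dusp4 and Dusp6, and the groups overlap for the other 6 members; axes differ between panels, since levels of different probes cannot be compared.

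Dusp4 showed the largest difference among the members. It encodes a nuclear phosphatase that is induced by ERK and acts on ERK and JNK. Its only probe (A_51_P518051, mm9 chromosome 8, 35882045 to 35882104) read 0.81, 0.48, 0.87 and 0.48 on WT 1 to WT 4. It read -0.20, -0.65 and -1.29 on Lck-/- 1 to Lck-/- 3. All 3 Lck-/- arrays lay below the lowest WT array, and Lck-/- 3 was the lowest. WT 1, the WT array with Xist signal, lay within the range of the other WT arrays. Lck-/- 3 was the Lck-/- array with Xist signal (1.04) and Eif2s3y at -6.82. The part of sex in the difference of Dusp4 was not tested. The means were 0.66 ± 0.21 (SD, n = 4) and -0.71 ± 0.55 (SD, n = 3). Their difference was -1.37 (SE 0.26, 95% interval -1.98 to -0.77), or 2.59-fold lower, with a limma adjusted p of 0.583. By p-value it ranked 16 among the 14824 genes. With WT 4 and Lck-/- 1, the arrays whose Lck signal went against the label, left out, the difference was -1.69 (limma adjusted p = 0.0679). The first 30 bases of the probe are shown because this single oligonucleotide carries the result.
Dusp4 probe: aataacggcggtttccgctgccagagaaga

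Dusp5 went the other way, with overlapping groups. It encodes a nuclear phosphatase that is specific for ERK and also anchors it in the nucleus. Its probe (A_55_P2063237, mm9 chromosome 19, 53615682 to 53615741) read -0.30, 0.79, 0.16 and 1.25 on WT 1 to WT 4 and 0.66, 1.17 and 1.37 on Lck-/- 1 to Lck-/- 3. WT 1 and WT 3 were low, while WT 4 lay within the Lck-/- range. The means were 0.48 ± 0.68 (SD, n = 4) and 1.07 ± 0.37 (SD, n = 3). Lck-/- was thus higher by 0.59 (SE 0.37, 95% interval -0.27 to 1.45, limma adjusted p = 0.806). The difference was 0.33 without WT 1, 0.12 with the mean of the NK markers as a covariate, and 1.05 (limma adjusted p = 0.292) without both WT 4 and Lck-/- 1.

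Dusp1 and Dusp2, the other members of the nuclear, rapidly induced kind, did not part the groups. Dusp1, a broad phosphatase that favours p38 and JNK, read -1.04, -0.51, -0.87 and -1.34 on WT 1 to WT 4 and -1.31, -1.06 and -1.27 on Lck-/- 1 to Lck-/- 3. WT 2 was the highest and WT 4 the lowest, below every Lck-/- array. The difference was -0.27 (SE 0.21, 95% interval -0.75 to 0.20, limma adjusted p = 0.851), and -0.13 without WT 2. Dusp2 (probe A_52_P399934, mm9 chromosome 2, 127163930 to 127163989), a phosphatase of blood cells that is induced by the T cell receptor, read 6.74, 7.28, 6.40 and 7.29 in WT and 6.69, 7.20 and 6.87 in Lck-/-. The Lck-/- arrays lay inside the WT range. The difference was -0.01 (SE 0.26, 95% interval -0.60 to 0.58, limma adjusted p = 0.999), and it ran from -0.52 with the mean of the mitosis genes as a covariate to 0.23 without WT 4 and Lck-/- 1.

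Dusp10 likewise showed no difference beyond its spread. It encodes a phosphatase that acts on p38 and JNK rather than ERK and limits effector cytokines in T cells. Its probe (A_51_P104418, mm9 chromosome 1, 185898608 to 185898667) read -1.08, -0.96, -1.35 and -1.28 on WT 1 to WT 4. It read -1.35, -0.84 and -1.25 on Lck-/- 1 to Lck-/- 3, which spanned nearly the whole WT range. The difference was 0.02 (SE 0.18, 95% interval -0.39 to 0.43, limma adjusted p = 0.994), with the sign turning under quantile normalization or with the array median as reference.

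Dusp6, the cytoplasmic phosphatase specific for ERK, was lower on every Lck-/- array than on any WT array. Its probe (A_51_P502614, mm9 chromosome 10, 98729985 to 98730044) read 2.70, 3.87, 2.06 and 2.55 on WT 1 to WT 4 and 1.90, 1.97 and 2.02 on Lck-/- 1 to Lck-/- 3. The Lck-/- values were close together, and WT 3 was nearly as low as they were, while WT 2 stood highest. The means were 2.80 ± 0.77 (SD, n = 4) and 1.96 ± 0.06 (SD, n = 3). The difference was -0.83 (SE 0.38, 95% interval -1.71 to 0.04), or 1.78-fold lower, with a limma adjusted p of 0.712. Without WT 2 it was -0.48, and without WT 3 it was -1.08.

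Spry1, which encodes an inhibitor of Ras and Raf activation that is induced in T cells by receptor engagement, had a pattern like that of Dusp6. Its probe (A_55_P1952235, mm9 chromosome 3, 37543403 to 37543462) read 3.58, 4.27, 3.05 and 3.59 on WT 1 to WT 4. It read 2.91, 3.25 and 2.83 on Lck-/- 1 to Lck-/- 3, so that only WT 3 overlapped them. The means were 3.62 ± 0.50 (SD, n = 4) and 2.99 ± 0.22 (SD, n = 3). They differed by -0.63 (SE 0.28, 95% interval -1.27 to 0.01) with a limma adjusted p of 0.697. Without WT 2 it was -0.41.

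Spred1, a membrane-bound inhibitor of Ras that recruits neurofibromin, had 3 probes, and both that passed the filter read lower in Lck-/-. The probe used for the gene (A_55_P2079430, mm9 chromosome 2, 117005906 to 117005965) read 0.31, 0.34, -0.10 and -0.01 on WT 1 to WT 4 and -0.33, -0.03 and -0.47 on Lck-/- 1 to Lck-/- 3. Lck-/- 2 lay above WT 3, so the groups overlapped. The difference was -0.41 (SE 0.18, 95% interval -0.83 to 0.004, limma adjusted p = 0.695). The other passing probe (A_55_P2079425, 117004952 to 117005011) read -0.07, 0.03, -0.25 and 0.59 in WT and -0.59, -0.41 and -0.72 in Lck-/-, without overlap. In a fit over 29201 passing probes its difference was -0.65 (SE 0.22, limma adjusted p = 0.665). The last probe (A_55_P2090045, 116998491 to 116998550), which the files assign to another transcript, was well above background on 1 WT array and on no Lck-/- array. The first 30 bases of each are shown because readings of the same gene depended on the probe.
A_55_P2079430: cattaatattttcagtttgtttaaccactt
A_55_P2079425: gtgatatgctccagcaaacaggttaaaaat
A_55_P2090045: caacctcttcattgtttaatgttctggtct

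Spry2 and Spry4 were not measurable in these cells. Spry2, the Sprouty form best known from growth factor signalling, was well above background on 0 of 4 WT arrays and 1 of 3 Lck-/- arrays. Spry4, a Sprouty form that is also induced by ERK, was not well above background on any of the 7. No fold is given for either.

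**Figure D2:**
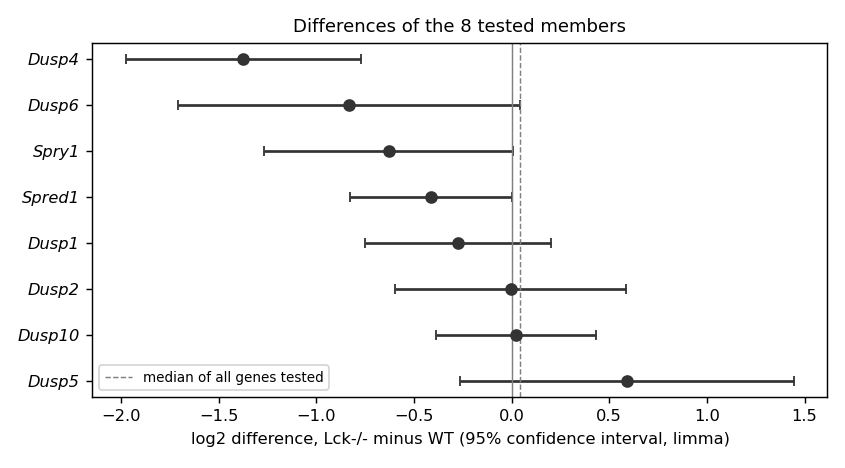
Difference Lck-/- minus WT on the log2 scale (horizontal axis) with its 95% confidence interval from limma for the 8 tested members, n = 4 and 3 arrays; the dashed line is the median of all genes tested (0.04). The interval of Dusp4 (-1.98 to -0.77) lies wholly below 0, and those of all other members span 0. The intervals of Dusp6, Spry1 and Spred1 end just above 0, at 0.04, 0.009 and 0.004. The intervals are not adjusted over genes, and the limma adjusted p of Dusp4 was 0.583.

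Spry1 ran with Dusp6 and with Spred1 over the 7 arrays. Among the 28 pairs of tested members, the highest correlation was that of Dusp6 with Spry1 (Pearson's r = 0.954, exact permutation p = 0.00476, adjusted over the 28 pairs 0.0667; Spearman's rho = 0.786, exact permutation p = 0.048, adjusted 0.336). Without WT 1 and WT 2, the arrays farthest from the median of Dusp6, r was 0.839. With each group centred on its own mean, r was 0.921. That value rests mainly on the WT arrays, where Dusp6 had an SD of 0.77, against 0.06 on the Lck-/- arrays. On Lck-/- 1 to Lck-/- 3 Dusp6 read 1.90, 1.97 and 2.02 and Spry1 2.91, 3.25 and 2.83, not in the same order. Spry1 and Spred1 followed (r = 0.885, exact permutation p = 0.00357, adjusted 0.0667; rho = 0.964, exact permutation p = 0.00278, adjusted 0.0778), with r = 0.832 without WT 2 and Lck-/- 3 and 0.782 after centring. Dusp6 and Spred1 were less close (r = 0.782, exact permutation p = 0.02, adjusted 0.187; rho = 0.821, exact permutation p = 0.0341, adjusted 0.336), with r = 0.509 without WT 1 and WT 2 and 0.603 after centring. No pair passed the threshold after adjustment. All 7 arrays were on 1 slide, so no slide or scan could be set apart. The 75th percentile subtracted from each array was lowest on WT 2 (354 before the log2 scale) and highest on WT 3 (615). These were the WT arrays where Dusp6, Spry1 and Spred1 read highest and lowest. WT 3 also had 1403 spots flagged as non-uniform, against 1 to 422 on the others. The part of array brightness in these correlations was not tested.

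Dusp4 did not share that order within the groups. Its correlation with Dusp6 was 0.463 over all arrays (exact permutation p = 0.316, adjusted 0.491; rho = 0.607, exact permutation p = 0.167, adjusted 0.529), 0.227 without Lck-/- 2 and Lck-/- 3, and -0.332 with each group centred. WT 2 was the highest array for Dusp6 and Spry1 and, with WT 4, the lowest WT array for Dusp4.

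Dusp5 ran against the genes of mitosis. The mean of 21 G2 and mitosis genes was 3.67, 2.19, 3.26 and 2.13 on WT 1 to WT 4 and 2.28, 1.41 and 1.34 on Lck-/- 1 to Lck-/- 3. Of 22 tested, all were lower in Lck-/-, with a median of -1.07. At an unadjusted p under 0.05 there were 15, against 2.19% of all genes lower at such a p, and none passed the adjusted threshold. Dusp5 was lowest where this mean was highest, on WT 1 and then WT 3, and highest on Lck-/- 3, where it was lowest. The correlation was -0.952 (exact permutation p = 0.00179, adjusted over 16 relations 0.0286; rho = -0.964, exact permutation p = 0.00278, adjusted 0.0444), -0.743 without WT 1 and WT 3, and -0.964 with each group centred. The permutation took no account of group, so its p also takes in the difference of the mitosis mean between groups. The centred value was not tested. With the mitosis mean as a covariate, an alternative added after the data were seen, the difference of Dusp5 was -0.33 (SE 0.22) in place of 0.59. The part of the mitosis genes in the members' differences was not tested. Dusp5 also ran with the NK marker mean (r = 0.824, exact permutation p = 0.024, adjusted 0.128; rho = 0.821, exact permutation p = 0.0341, adjusted 0.182), with r = 0.820 without WT 1 and Lck-/- 2.

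Dusp4 ran in the same direction as the mitosis genes, less closely (r = 0.850, exact permutation p = 0.0188, adjusted 0.128; rho = 0.857, exact permutation p = 0.0238, adjusted 0.182). Without WT 1 and WT 3 r was 0.849, and with each group centred 0.719. On WT 2, WT 4 and Lck-/- 1 the mitosis mean read 2.13 to 2.28, and Dusp4 read 0.48, 0.48 and -0.20. WT 4 and Lck-/- 1 are the arrays whose Lck signal went against the label. With the mitosis mean as a covariate its difference was -0.92 (SE 0.29, limma adjusted p = 0.928). The same covariate gave -1.30 (SE 0.50) for Dusp6, in place of -0.83, and -0.98 (SE 0.36) for Spry1, in place of -0.63. Whether the mitosis genes bear on these differences was not tested.

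**Figure D3:**
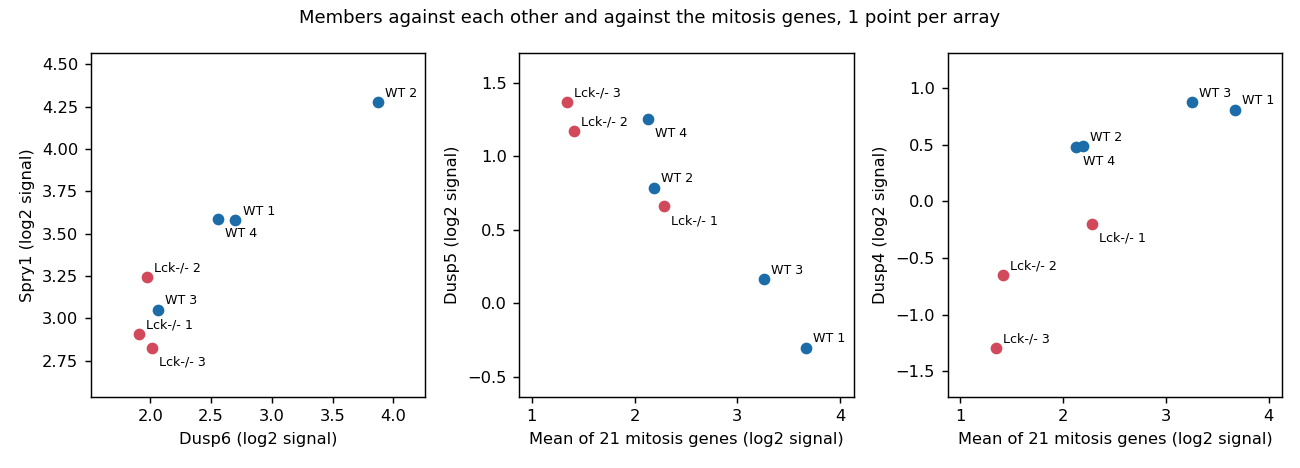
Log2 signal of Spry1 against Dusp6 (left), and of Dusp5 (middle) and Dusp4 (right) against the mean log2 signal of 21 mitosis genes, 1 point per array, WT blue and Lck-/- red. Spry1 is high where Dusp6 is high (r = 0.954), Dusp5 is low where the mitosis mean is high (r = -0.952), and Dusp4 is high there (r = 0.850).

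Promoters are shown for Spry1 and the 2 members it ran with, and for Dusp5, which went the other way. RefSeq sequence on GRCm38.p6 held a start site for 8 of the 10 members, all but Dusp4 and Spry4, and the 250 bases before it were searched on both strands. The motifs were the CRE (TGACGTCA), the AP-1 site (TGANTCA), an ETS core (CGGAAG), the EGR site (GCGNGGGCG), the E-box (CACGTG), the sequence TATAAA and the CArG box bound by serum response factor. Capitals mark each match. The windows are chr10:99262981-99263230 for Dusp6, chr3:37639697-37639946 for Spry1, chr2:117120821-117121070 for Spred1 and chr19:53528895-53529144 for Dusp5, all on the plus strand.
Dusp6: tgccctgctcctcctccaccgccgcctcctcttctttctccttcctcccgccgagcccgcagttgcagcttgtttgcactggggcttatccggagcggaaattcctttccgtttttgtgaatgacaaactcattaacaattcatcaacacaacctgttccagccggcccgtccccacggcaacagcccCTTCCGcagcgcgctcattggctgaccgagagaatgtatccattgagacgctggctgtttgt
Spry1: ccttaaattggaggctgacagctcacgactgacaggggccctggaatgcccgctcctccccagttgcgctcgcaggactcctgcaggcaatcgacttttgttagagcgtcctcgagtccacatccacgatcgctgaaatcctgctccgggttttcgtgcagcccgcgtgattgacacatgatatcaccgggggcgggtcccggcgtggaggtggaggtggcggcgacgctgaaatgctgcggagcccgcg
Spred1: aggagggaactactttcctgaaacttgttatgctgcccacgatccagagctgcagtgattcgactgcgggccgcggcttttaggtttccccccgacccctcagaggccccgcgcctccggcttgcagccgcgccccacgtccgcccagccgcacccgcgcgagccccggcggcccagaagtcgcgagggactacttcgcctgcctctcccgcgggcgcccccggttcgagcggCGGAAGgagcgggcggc
Dusp5: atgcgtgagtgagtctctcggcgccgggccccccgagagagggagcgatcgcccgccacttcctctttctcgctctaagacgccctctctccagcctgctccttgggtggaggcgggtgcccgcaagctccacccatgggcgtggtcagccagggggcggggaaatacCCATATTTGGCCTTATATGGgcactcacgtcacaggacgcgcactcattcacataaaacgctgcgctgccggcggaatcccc
Dusp6 and Spred1 each held 1 ETS core, 62 to 57 and 17 to 12 bases before the start, a motif found in 13.6% of all 32851 promoter windows. Dusp5 held 2 adjoining CArG boxes, CCATATTTGG and CCTTATATGG, 82 to 63 bases before the start, and 1.47% of all windows held at least 1. Spry1 held none of these motifs in this window. Among the other members, Dusp1 held a CRE (1.55% of all windows) and an E-box (6.02%), and Dusp2 an EGR site (4.70%) and an E-box. No member window held TATAAA (12.4%) or an AP-1 site (6.75%). These matches describe letters only and show no binding.

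Among the other genes of the DUSP family, Dusp14 resembled Dusp4. It encodes a small phosphatase that dampens T cell receptor signalling. It read -0.43, -0.59, -0.63 and -1.26 on WT 1 to WT 4 and -1.35, -2.19 and -2.70 on Lck-/- 1 to Lck-/- 3, without overlap. The difference was -1.35 (SE 0.33, limma adjusted p = 0.605), and -1.90 without WT 4 and Lck-/- 1, when it passed the threshold (limma adjusted p = 0.0343). With the mitosis mean as a covariate it was -0.75 (SE 0.37). Of the 14 family genes tested, 0 passed over all genes. Their differences were negative for 7 and positive for 7, against 42.5% negative over all genes. The median was -0.03 (11 negative and -0.24 with the array median as reference). The cofilin phosphatase gene Ssh1 differed by 0.70 (SE 0.22), but by 0.29 with normexp and quantile normalization and by 0.24 in the deposited table. Dusp16, which acts on JNK, differed by -0.49 (SE 0.23), and by -0.79 with the mitosis covariate. Dusp11, an RNA phosphatase gene, differed by 0.24 (SE 0.19), and by -0.09 with that covariate. Spred2, the only other Sprouty or Spred gene tested, differed by -0.19 (SE 0.19). It was -0.34 without WT 4, -0.11 without WT 3, 0.05 with the NK covariate and 0.08 with the mitosis covariate.

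The ETS factors Etv4 and Etv5, which are transcribed in response to ERK, were the ERK-responsive transcripts with the smallest p-values. Etv5 read 0.28, 0.34, 0.26 and -0.58 on WT 1 to WT 4 and -0.70, -1.51 and -1.13 on Lck-/- 1 to Lck-/- 3. All Lck-/- arrays were lower than all WT arrays, and WT 4 lay next to Lck-/- 1. The difference was -1.19 (SE 0.28, limma adjusted p = 0.592), and -1.61 without WT 4 and Lck-/- 1 (limma adjusted p = 0.0402). With the mean of the NK markers in the model it was -0.77, and with that of the mitosis genes -0.75. Etv4 differed by -0.79 (SE 0.24), with WT 4 below Lck-/- 1, and by -0.52 and -0.45 with these covariates. Maff, a small Maf factor, differed by -0.41 (SE 0.15) and the survival gene Ier3 by 1.03 (SE 0.35). Of the 28 transcripts of this list, 0 passed over all genes. At an unadjusted p under 0.05, 3 were lower and 1 was higher, against 2.19% and 4.94% of all genes. The median was 0.05, with 13 of 28 negative, where 42.5% of all genes were negative. Taken against the array median, a choice that shifts the median over all genes by -0.20, it was -0.16, with 21 negative.

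Most kinases and adaptors of the cascades that these proteins restrain differed by less than 0.5 in either direction. Over all genes 42.5% of differences were negative, and the share within 0.5 of 0 was not counted. Of 25 genes of the Ras-ERK cascade, 18 differences were positive and 7 negative, with a median of 0.05, and 24 lay within 0.5 of 0. With the array median as reference 17 were negative and the median was -0.16. The exception was the adaptor Gab3 at 0.87 (SE 0.29). Gab3 read 4.88 on Lck-/- 2 and 3.78 and 3.77 on the other Lck-/- arrays, and the difference was 0.51 without Lck-/- 2, 0.48 with the NK covariate and 0.55 with the mitosis covariate. The phosphatase gene Ptpn11 differed by -0.35 (SE 0.16), the Ras GTPase activator Rasa1 by 0.29 (SE 0.14) and the scaffold Ksr1 by 0.42 (SE 0.21). Against the array median these were -0.56, 0.08 and 0.21. The groups did not overlap for 3 of the 25, Gab3, Rasa1 and Rasal3, all higher in Lck-/-. Of all genes, 5.09% were parted in that direction. Of 19 genes of the p38 and JNK cascades, 6 were positive and 13 negative, with a median of -0.08, and 16 lay within 0.5 of 0. With the array median as reference 14 were negative and the median was -0.28. The stress sensors Gadd45g and Gadd45b differed by 1.09 (SE 0.34) and 0.62 (SE 0.36), the JNK kinase Map2k7 by 0.59 (SE 0.27) and the p38 gene Mapk14 by -0.39 (SE 0.21). With the mitosis covariate Gadd45b was -0.14 and Map2k7 0.10. Without WT 1 Gadd45b was 0.35, without WT 3 Map2k7 was 0.39, and with the passing probes averaged Mapk14 was -0.21. No gene of either list passed over all genes.

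**Figure D4:**
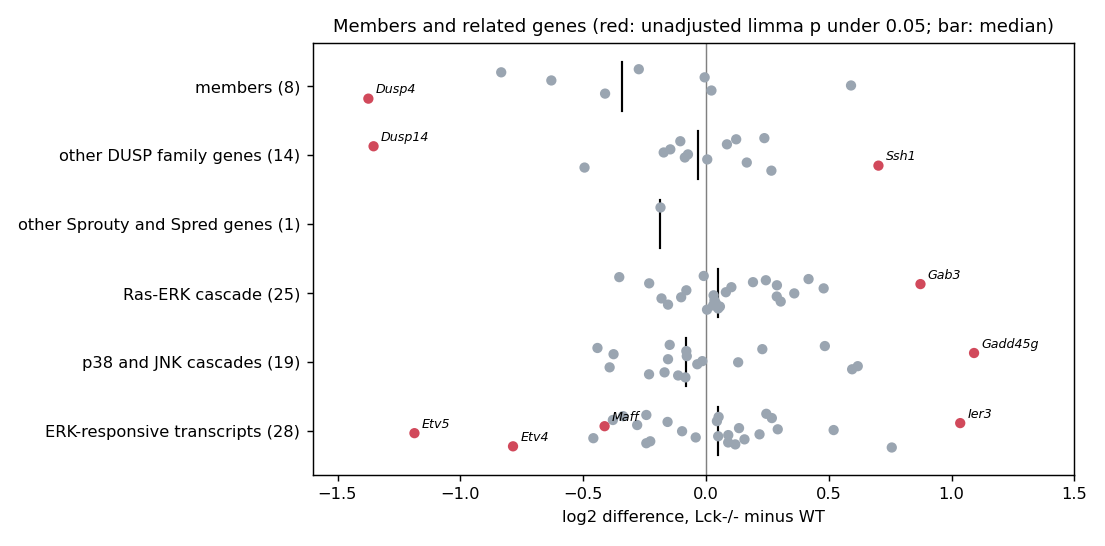
Difference Lck-/- minus WT on the log2 scale (horizontal axis) of each tested gene in the member list and 5 lists of related genes, with the number of genes tested in brackets; each point is a gene, red where the unadjusted limma p was under 0.05, and bars are list medians. Dusp4, Dusp14 and Etv5 lie farthest to the left, while the medians of the related lists lie between -0.19 and 0.05.

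The genes whose values were most like those of Dusp4 over the 7 arrays, among 14148 others with a value on every array, were Prodh (Pearson's r = 0.979), Egfl7 (0.978), Kiz (0.971), Plpp1 (0.970) and Usp44 (0.969). They were picked from all genes for this likeness, so r is a description only. Their differences were -0.39 for Prodh, a proline dehydrogenase gene, -0.32 for Egfl7, which hosts a microRNA, -0.40 for the centrosomal Kiz, -1.40 for Plpp1, a lipid phosphatase gene, and -0.82 for Usp44, a ubiquitin protease gene of the spindle checkpoint. Usp44 was read at a low level, with means of -3.64 in WT and -4.46 in Lck-/-.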

How the data were processed

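RNA of integrity number above 8 was used, and 50 ng was labelled with Cy3, per the labels' protocols. The authors' deposited scanner files give spot intensity, made with Agilent Feature Extraction 10.7.3.1 on an mm9 design, per the file headers. The same headers record spatial and multiplicative detrending within each array. A separate table deposited by the authors is on the log2 scale. How its arrays were normalized is not stated in the labels, and it served as an alternative.

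Processed intensity was put on the log2 scale and each array's 75th percentile over non-control spots was subtracted. Spots flagged as outliers were left out. A probe entered when well above background on at least 3 of 7 arrays, and a gene was read from its brightest probe. Of 55681 probes, 33184 had a gene name and 22497 were named only by an ID. The reference table (GRCm38.p6) named 27229 by accession, 3573 by symbol and 564 by synonym. Groups and replicate numbers came from the titles. The groups were compared with limma 3.58.1 under R 4.3.3, using lmFit, eBayes and Benjamini-Hochberg adjustment over all genes, in a script tested on simulated data. Correlations were tested by exact permutation (two-sided) of all 7 arrays without regard to group, so p also takes in differences between the groups. The series calls the samples biological replicates. The number of arrays limits the precision.

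The sex-linked transcripts were read after the other results were seen. The members and lists were chosen with earlier results of these data known. All 10 members were named. Each related list gave its 4 genes of smallest p, and the 5 genes most like Dusp4 were added. The alternatives were 14 other settings and leaving out each of the 7 arrays.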

Additional observations from a re-analysis of the deposited data

Results flagged for a closer look

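Among the 4 WT arrays, Etv5 on WT 4 read -0.577, apart from the other 3, which read 0.261 to 0.338. Its gap to the nearest of them was 0.916 of the whole WT range, above Dixon's 95% critical value. It was the only one of 25 genes checked, the 8 members and the 17 genes of smallest p from the related lists, where about 1 in 20 would stand out by chance. WT 4 was also the array with the lowest Lck signal and the highest NK marker mean among the WT arrays.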

How the results depend on the processing

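No member passed the threshold in any of the 21 settings. Over all genes, none of 14824 passed, while 1 passed with the replicate block (Klra15), 1 with the number in the file names as a block (Tshb), 1 with array weights (Timd2), 60 without both WT 4 and Lck-/- 1, and 0 to 1 with any 1 array left out (Xist without WT 1, the only WT array with Xist signal). These genes were chosen after their values were seen. Deviations from the group means correlated at 0.102, 0.0609 and -0.0289 for arrays numbered 1, 2 and 3, so the block was not used as a pairing; it gives WT 4, which has no partner, no weight.

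Dusp1, Dusp4, Dusp6, Spry1 and Spred1 were lower in all 21 settings. Dusp4 ran from -1.69 to -0.92 with an unadjusted p under 0.05 in every one, and limma adjusted p from 0.0679 to 0.999. Dusp6 had such a p in 8 settings, Spry1 in 8, Spred1 in 10 and Dusp5 in 4. The settings reuse the same arrays, so these counts are not repeated tests. The number of all 14824 genes with such a p also changed. It was 1057 in the main fit, 635 with the NK covariate and 1562 with the replicate block. The median over the members ran from -0.443 to -0.236 with any 1 array left out. The array median as reference moved the median of all genes by -0.20. It only subtracts another constant from each array, so members and other genes move alike and their distance is not tested by it. Dusp5 was -0.33 with the mitosis mean as a covariate. Dusp2 was 0.116 with the replicate block, 0.111 with the file-name number as a block, 0.0401 with the slide row as a block and 0.231 without both doubted arrays, but -0.518 with the mitosis covariate and -0.312 with the NK covariate, and -0.18 to 0.116 with any 1 array left out. Dusp10 was -0.0142 with quantile normalization, -0.00115 with normexp, -0.182 with the array median as reference, -0.0749 with the deposited table, -0.0157 with the replicate block, -0.0405 with the NK covariate and -0.0877 with the mitosis covariate, and -0.133 to 0.124 with any 1 array left out. The cause of these turns was not tested. Signal too near background left Spry2 and Spry4 without a value.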
